A study of Homo sapiens with 6 samples.

Results

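GAGE, PAGE, XAGE and SSX are families of short, repeated genes on the X chromosome that belong to the cancer-testis genes. Such genes are normally read in germ cells, some of them also in placenta, and are kept silent in most other tissues, where methylation of CG dinucleotides in their promoters is the best known part of that silence. HELLS, the gene removed in the cells described here, encodes a chromatin remodeller of the SNF2 family that is needed for DNA methylation of many silent regions. In HAP1, the study's assay of total CG methylation found no change with the loss of HELLS. Methylation at the promoters of these families was not measured here. The members were taken by name: every row of the count table whose Ensembl identifier has a symbol starting with GAGE, PAGE, XAGE or SSX followed by a digit. This gave 37 of 60483 rows, of which 13 were GAGE, 6 PAGE, 5 XAGE and 11 SSX genes, 35 in all. The other 2 rows were SSX2IP, which encodes a protein that binds SSX2 and is no SSX gene itself, and its pseudogene SSX2IPP1.

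RNA was sequenced from HAP1, a near-haploid human line derived from chronic myelogenous leukemia, and from HELLS KO, the same line with a 1-base insertion in exon 3 of HELLS, with 3 libraries of each genotype and ordinary growth in both. HELLS KO is 1 purchased clone, so a property of the clone and an effect of the lost gene cannot be told apart. The study calls the libraries biological replicates and the labels do not say that they came from separate cultures, so the p-values measure the spread between these samples. Replicate 3 of each genotype carries a batch label, replicates 1 and 2 do not. Total counts were 13641237 to 14859360 in replicates 1 and 2 and 24126357 to 24400187 in replicate 3. HELLS RNA itself was at 1444, 1488 and 3671 counts in HAP1 against 1410, 1375 and 2802 in HELLS KO (log2 fold change −0.24 ± 0.18 (SE), adjusted p = 1.00, edgeR's quasi-likelihood test), so RNA counts do not show the insertion and leave the labels of these libraries unchecked. By western blot, the study reports HELLS protein to be lost in its HAP1 HELLS KO cells. Of 8 markers of the labelled leukemia, SPI1 and HBG1 were at 0 in all 6 libraries, 4 of 8 had at most 3 counts in every library, and KIT, a receptor of blood stem cells, was called lower in HELLS KO, and the 8 summed to 21.1 to 40.1 CPM (counts scaled to a common library size) in HAP1 and 3.64 to 7.11 CPM in HELLS KO. Their part in the values of the families was not tested.

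The members lie in a few stretches of the X chromosome (GENCODE 44, GRCh38). The SSX genes from SSX6P to SSX4B span chrX:48109981-48411960, the GAGE array from GAGE10 to GAGE1 spans chrX:49303646-49608538, and PAGE1 and PAGE4 follow at chrX:49687447-49834264. All XAGE genes and SSX8P, SSX7, SSX2 and SSX2B lie within chrX:52369021-52868083, and PAGE2B, PAGE2, PAGE5 and PAGE3 within chrX:55075030-55264916. By their order in these groups, the 3 GAGE genes with a call (GAGE12H, GAGE2A and GAGE1) are the last 3 of the array. Earlier in it, GAGE12J and GAGE13 also had counts in HELLS KO, 27 and 13, but were not tested. GAGE2E and GAGE12B to GAGE12G share all their sequence with other genes in stretches of 100 bases, as described below, so the order of the calls also follows which rows can be counted.

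Start regions of the families are printed here with CG dinucleotides in capitals, before any count is read. Sequences are the 250 bases before the RefSeq start of each gene in GRCh38.p14, written 5′ to 3′ along the gene as the reference gives them. The SSX1 window holds a stretch of the SSX7 window as its reverse complement, and why was not tested. In global alignment SSX7 was 45.3% identical to SSX1 and 31.5% to SSX2. The printed SSX windows thus need not cover the same part of the start region. For each family the gene of a strongly counted row is given, and beside it a relative that was at or near 0 in all 6 libraries where the reference tables hold one. GAGE2A lies at chrX:49589246-49589495 (+), GAGE10 at chrX:49303396-49303645 (+), PAGE5 at chrX:55220096-55220345 (+), PAGE3 at chrX:55264917-55265166 (−), XAGE5 at chrX:52811037-52811286 (+), SSX1 at chrX:48255142-48255391 (+) and SSX7 at chrX:52654901-52655150 (−).
GAGE2A: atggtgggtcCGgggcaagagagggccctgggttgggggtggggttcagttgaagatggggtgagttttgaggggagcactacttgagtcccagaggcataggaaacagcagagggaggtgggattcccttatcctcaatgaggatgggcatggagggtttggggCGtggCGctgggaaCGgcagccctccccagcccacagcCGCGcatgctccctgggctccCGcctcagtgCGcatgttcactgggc
GAGE10: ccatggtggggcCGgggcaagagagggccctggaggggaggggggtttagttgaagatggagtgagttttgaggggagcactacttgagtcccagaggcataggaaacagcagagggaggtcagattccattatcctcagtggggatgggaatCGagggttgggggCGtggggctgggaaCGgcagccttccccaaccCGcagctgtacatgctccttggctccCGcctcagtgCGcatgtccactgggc
PAGE5: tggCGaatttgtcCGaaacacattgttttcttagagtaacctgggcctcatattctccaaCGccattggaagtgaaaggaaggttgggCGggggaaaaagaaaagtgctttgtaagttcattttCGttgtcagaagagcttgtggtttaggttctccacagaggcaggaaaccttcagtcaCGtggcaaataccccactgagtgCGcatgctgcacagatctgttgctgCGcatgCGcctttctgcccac
PAGE3: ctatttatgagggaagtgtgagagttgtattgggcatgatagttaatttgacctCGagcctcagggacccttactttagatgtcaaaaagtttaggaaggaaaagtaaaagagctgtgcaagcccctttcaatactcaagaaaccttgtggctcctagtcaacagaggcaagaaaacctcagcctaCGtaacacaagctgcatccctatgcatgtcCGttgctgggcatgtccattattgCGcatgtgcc
XAGE5: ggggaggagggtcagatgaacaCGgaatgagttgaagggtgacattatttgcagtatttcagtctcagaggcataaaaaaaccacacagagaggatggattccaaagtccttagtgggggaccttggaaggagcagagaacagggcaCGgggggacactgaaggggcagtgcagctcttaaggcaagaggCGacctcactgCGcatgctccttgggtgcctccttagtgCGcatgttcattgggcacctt
SSX1: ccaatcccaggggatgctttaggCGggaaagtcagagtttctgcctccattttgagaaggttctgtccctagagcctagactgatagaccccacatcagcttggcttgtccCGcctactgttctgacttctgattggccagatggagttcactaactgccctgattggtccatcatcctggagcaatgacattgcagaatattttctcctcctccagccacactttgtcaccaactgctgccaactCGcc
SSX7: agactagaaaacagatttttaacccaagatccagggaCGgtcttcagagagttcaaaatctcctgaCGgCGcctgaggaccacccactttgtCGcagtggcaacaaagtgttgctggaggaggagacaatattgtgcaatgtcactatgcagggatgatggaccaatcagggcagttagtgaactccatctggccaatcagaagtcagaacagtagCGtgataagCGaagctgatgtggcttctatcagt

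Promoters were matched for 28 of the 35 genes, without GAGE2E, GAGE12B, GAGE12F, SSX3, SSX6P, SSX8P and SSX9P. Their number of CG dinucleotides ran from 3 in SSX1 to 12 in XAGE3, with a median of 8, against a median of 11 over the 27305 promoters of all genes and 11 over the 949 of the X chromosome. None of the 28 had the TATAAA box, which 11.1% of all promoters hold, or CCGGAAG, a core bound by ETS factors that 8.82% hold, on either strand. GGGCGG, the core of a GC box, was in 4 of 28 against 42.3% of all promoters, and GGAAG, a shorter ETS core that CCGGAAG overlaps, in 13 of 28 against 65.1%. These are matches of letters in a window and say nothing about which factors bind there.

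Copies within the GAGE family had the same start region. The 250 bases were letter for letter those printed for GAGE2A in GAGE12J, GAGE13, GAGE12C, GAGE12D, GAGE12E, GAGE12H and GAGE1, and GAGE10 was 88.9% identical to them (global alignment). These 8 identical promoters belong to rows with 720 counts in HELLS KO (GAGE1), 481 (GAGE2A), 92 (GAGE12H), 27 (GAGE12J), 13 (GAGE13) and 0 (GAGE12C, GAGE12D and GAGE12E). The transcripts of GAGE12C, GAGE12D and GAGE12E share every 100-base stretch with other genes, as described below, so their 0 does not show a silent gene. The promoters of SSX2 and SSX2B were identical as well.

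All 4 families were close to empty in HAP1 and were read in HELLS KO. Summed over the 35 genes, the counts were 6, 9 and 12 in the 3 HAP1 libraries and 1826, 1398 and 2687 in the 3 HELLS KO libraries. As CPM, with library sizes adjusted by TMM, this is 0.526 ± 0.118 CPM in HAP1 and 111 ± 13.8 CPM in HELLS KO (mean ± SD, n = 3 each). In bulk RNA, a few cells with much RNA of a gene and many cells with little of it cannot be told apart. Of the 35 genes, 29 were at 0 in every HAP1 library, 27 had at least 1 count in HELLS KO, and 8 were at 0 in all 6 libraries.

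In 21 of the 35 genes every HELLS KO library lay above every HAP1 library in CPM, a pattern seen in 4.99% of the 17925 genes tested. These shares are over unlike sets, since 24 of the 35 genes had too few counts to be tested. Of the 33 with at most 3 counts in each HAP1 library, 17 had more than 3 in each HELLS KO library, and all 17 are protein-coding. The same change was found in 0.947% of all 35695 rows that were this low in HAP1, in 23.5% of the 255 protein-coding X rows among them, and in 19.1% of the 225 protein-coding X rows that are not members. The opposite change, from more than 3 counts in each HAP1 library to at most 3 in each HELLS KO library, was found in 0.238% of 35234 rows and in no member. Counts of 2 were commoner than counts of 1 or 3 in every library, so the lowest counts may hold both mates of 1 fragment, a point that the sources used here do not state.

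Of the 35 genes, 11 had enough counts to be tested among all genes, and all 11 were called higher in HELLS KO (adjusted p under 0.05 and a log2 fold change of at least 1). Over all 17925 genes tested 1.5% were called higher and 0.72% lower. A gene at 0 in HAP1 enters the test only when HELLS KO lifts it over the filter on low counts, so the 11 of 11 is fixed in its direction by that filter and is no measure of how regular the change was. The other 24 genes were not tested, and for them the counts are the result.

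The GAGE family holds near-identical genes in tandem, and its products are short acidic proteins first found as antigens of T cells against melanoma. All 13 genes were at 0 in each HAP1 library, and 6 of 13 had counts in HELLS KO. GAGE1 had 164, 145 and 411 counts in HELLS KO, or 12.8 ± 3.61 CPM. GAGE2A had 167, 116 and 198 counts, or 9.24 ± 1.94 CPM. GAGE12H had 41, 21 and 30 counts, or 1.84 ± 0.855 CPM. The libraries of these 3 genes do not overlap between genotypes and were called higher, with adjusted p = 0.00238 for GAGE1, 0.00224 for GAGE2A and 0.0216 for GAGE12H (edgeR's quasi-likelihood test).

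Because HAP1 was at 0, the size of these changes has only a lower bound. With 3 counts in each HAP1 library as the floor, a mean of 0.185 CPM, GAGE1 was at least 69.1-fold higher in HELLS KO, GAGE2A at least 50.0-fold and GAGE12H at least 9.96-fold. Such floors and all intervals given here cover counting error only. The intervals take counts as independent and are too narrow if the mates of 1 fragment were counted apart. GAGE12J, with 11, 8 and 8 counts in HELLS KO, was at least 2.97-fold higher and was not tested. GAGE13 had 5, 2 and 6 counts, and GAGE2E 1 count in replicate 3 alone. The 7 rows at 0 in all 6 libraries were GAGE10, GAGE12B, GAGE12C, GAGE12D, GAGE12E, GAGE12F and GAGE12G, where 3 counts in a library would be 0.123 to 0.220 CPM.

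How much of a GAGE gene can be seen at all depends on the sequence it does not share. The study removed reads whose mapping quality was below 20, which drops reads that align equally well in several places, and its reads were 100 bases long. Each gene's annotated transcripts were therefore cut into all stretches of 100 bases, and a stretch was called its own if it occurred in no other gene and nowhere else in the genome. GAGE12B, GAGE12C, GAGE12D, GAGE12E, GAGE12F, GAGE12G and GAGE2E had 0 stretches of their own. Over all 35 genes, 10 had no stretch of their own and 6 of these were at 0 in HELLS KO, 16 had some and 2 of these were at 0, and of the 9 without any shared stretch none was at 0. A row with no own stretch at 0 does not show a silent gene, since reads from it would be dropped unless a mate reached beyond the shared part.

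GAGE12H and GAGE2A are visible through very few bases. The 100 own stretches of GAGE12H all cover 1 base, position 288 of its transcript of 561 bases, in the coding part of exon 3 at chrX:49581740 on GRCh38. GAGE2A has 200, of which 100 all cover position 291 of its transcript of 558 bases, in the coding part of exon 3 at chrX:49591290, and the other 100 all cover position 144. The 29 bases around positions 288 and 291 are shown with that base in capitals, beside the same stretch of GAGE12D, a row at 0 in all libraries.
GAGE12H: ctgcagctgctcagAagggagaggatgag
GAGE12D: ctgcagctgctcagGagggagaggatgag
GAGE2A: ctgctcaggagggaCaggatgagggagca
GAGE12D: ctgctcaggagggaGaggatgagggagca

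Counted from the first base of the transcript, these are A288G for GAGE12H and C291G for GAGE2A, with the base of the named gene first. GAGE10, GAGE12C, GAGE12E, GAGE12F, GAGE12G, GAGE12J, GAGE13, GAGE2E and GAGE1 have the base of GAGE12D at both places. Reads from HAP1 carry the bases of HAP1 and not of the reference, and how many GAGE copies HAP1 has was not tested, so counts of GAGE12H and GAGE2A tell of reads with these bases rather than of a known copy. GAGE12J likewise had 100 own stretches, all over position 163 of its transcript, and GAGE13 had 84. GAGE1 had 2783 own stretches of 3136, and in its longest transcript, of 3129 bases, every stretch from position 344 on was its own.

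GAGE10 is different from the other silent rows. It had 377 own stretches of 459, more than GAGE2A, GAGE12H and GAGE12J, and still had 0 counts in all 6 libraries. It has the lowest coordinate of the 13 GAGE genes, and its start region, printed above, holds 7 CG dinucleotides where that of GAGE2A holds 8. A level of GAGE10 under the 0.123 to 0.220 CPM that 3 counts stand for was not detectable at this depth.

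**Figure D1:**
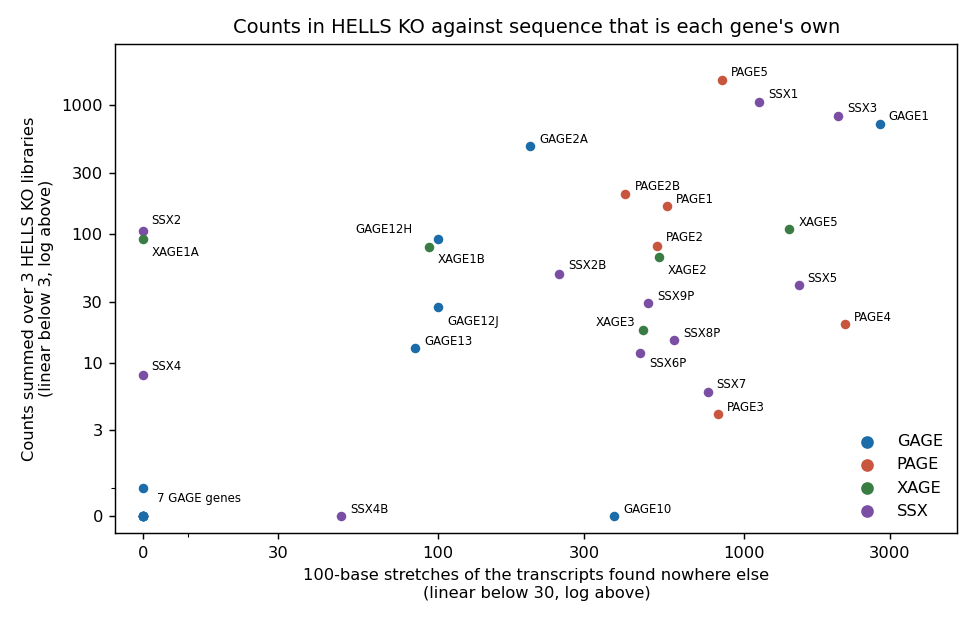
Counts of each gene summed over the 3 HELLS KO libraries (y axis, linear below 3 and logarithmic above) against the number of 100-base stretches of its transcripts found nowhere else (x axis, linear below 30 and logarithmic above), coloured by family. Of the 7 GAGE genes with 0 own stretches none exceeds 1 count, and GAGE10 is at 0 counts with 377 own stretches.

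PAGE genes encode small disordered proteins related to GAGE. PAGE5 had the most counts of all members: 2, 4 and 0 in HAP1 against 530, 439 and 606 in HELLS KO, or 30.7 ± 5.77 CPM. Its log2 fold change was 7.92 ± 0.59 (SE), with adjusted p = 0.00107. PAGE2B had 2, 1 and 2 counts in HAP1 against 71, 43 and 91 in HELLS KO, and its log2 fold change was 5.22 ± 0.45 (SE), with adjusted p = 0.00182. In neither gene did a HAP1 library come near a HELLS KO library.

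PAGE1, PAGE2 and PAGE4 were at 0 in every HAP1 library. PAGE1 had 58, 35 and 72 counts in HELLS KO, at least 16.9-fold higher, with adjusted p = 0.00711. PAGE2, the neighbour and close relative of PAGE2B, had 23, 13 and 45 counts, at least 7.83-fold higher, with adjusted p = 0.0199. PAGE4, known from prostate and placenta, had 4, 4 and 12 counts, at least 1.89-fold higher, and was not tested. PAGE3 had 2, 2 and 0 counts, which is at the floor and gives no fold. All 4 called PAGE genes passed edgeR's quasi-likelihood test.

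Shared sequence does not limit the reading of most PAGE genes. PAGE1, PAGE3, PAGE4 and PAGE5 had no shared stretch, and PAGE2 and PAGE2B shared only 128 stretches with each other, 19.8% and 23.8% of theirs. PAGE3 was thus at 4 counts with 824 own stretches while PAGE5 was at 1575 counts with 847. PAGE3 and PAGE4 each had 4 CG dinucleotides in the start region, and PAGE1, PAGE2, PAGE2B and PAGE5 had 9, 11, 11 and 9. This is a description of 6 genes with no test.

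XAGE genes form a further branch, with XAGE1 an antigen of lung cancer and XAGE2 and XAGE3 known from placenta. XAGE5 had 0 counts in HAP1 against 36, 16 and 57 in HELLS KO, at least 10.7-fold higher, and was called higher with adjusted p = 0.0174 by edgeR's quasi-likelihood test. XAGE1A had 50, 27 and 14 counts in HELLS KO and XAGE1B 45, 21 and 14, with 0 in HAP1, so they were at least 10.6-fold and 9.27-fold higher. XAGE2 had 27, 8 and 31 counts, at least 6.66-fold higher. None of these 3 was tested, though no library of HELLS KO overlapped HAP1.

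XAGE3 was the quietest of the family, with 0, 2 and 0 counts in HAP1 against 6, 4 and 8 in HELLS KO. Its ratio over HAP1 was taken from counts summed over the libraries of a genotype and divided by their summed library sizes. This ratio was 8.79 with an exact 95% counting interval of 2.11 to 78.1. XAGE1A and XAGE1B are a repeated pair: all 969 stretches of XAGE1A occur in XAGE1B, and XAGE1B has 93 own stretches of 1336, so their counts cannot be told apart by gene. All 5 XAGE genes had counts in each HELLS KO library.

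SSX genes encode nuclear repressor proteins, and SSX1, SSX2 and SSX4 are known as partners of SS18 in the fusions of synovial sarcoma. SSX1 had 0, 2 and 8 counts in HAP1 against 295, 252 and 518 in HELLS KO, or 19.7 ± 1.88 CPM, with a log2 fold change of 6.68 ± 0.54 (SE) and adjusted p = 0.00148. SSX3 had 2, 0 and 0 counts in HAP1 against 210, 169 and 455 in HELLS KO, with adjusted p = 0.00144. Its ratio from summed counts, taken as for XAGE3, was 407 with an exact 95% counting interval of 112 to 3370. SSX2 had 0 counts in HAP1 against 38, 26 and 41 in HELLS KO, at least 11.03-fold higher, with adjusted p = 0.0111. The 3 genes were called higher by edgeR's quasi-likelihood test with no overlap between genotypes, and SSX1 alone made up 49.2% of the SSX counts in HELLS KO.

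The other 8 SSX rows were low or silent. SSX2B had 21, 18 and 10 counts in HELLS KO, at least 5.62-fold higher, and SSX5 had 11, 10 and 19, at least 4.04-fold higher, both with 0 in HAP1. The pseudogene SSX9P had 0 counts in HAP1 against 2, 7 and 20 in HELLS KO. The pseudogene SSX8P had 0 in HAP1 and 0, 2 and 13 in HELLS KO, so its libraries overlap at 0. SSX6P, also a pseudogene, had 0, 0 and 2 counts in HAP1 against 0, 5 and 7 in HELLS KO, and its libraries overlap as well. SSX4 had 6, 2 and 0 counts and SSX7 3, 3 and 0 in HELLS KO, and SSX4B was at 0 in all libraries.

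Among the silent SSX rows, SSX7 can be seen and SSX4 and SSX4B can hardly be. SSX7 had 761 own stretches of 1241 and 6 counts in HELLS KO. SSX4 had 0 own stretches of 1231 and SSX4B 48 of 1277, since they share 1227 with each other. SSX2 too had 0 own stretches, its 1521 all being in SSX2B, yet its row was counted, as was that of XAGE1A. How reads came to be counted there was not tested, and the counts are uncertain between SSX2 and SSX2B.

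**Figure D2:**
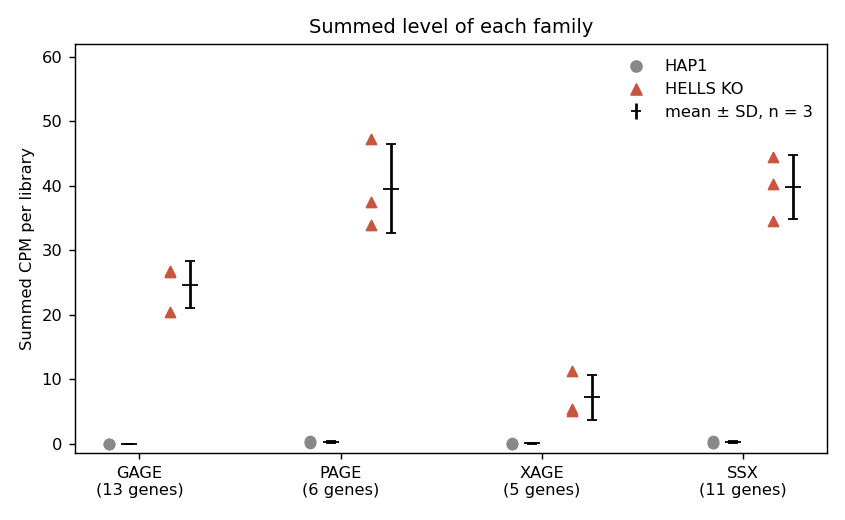
Summed CPM of each family in each library (points), with the mean and SD of the 3 libraries of a genotype (black bars). HAP1 lies at 0 for GAGE and at 0.0485 to 0.243 CPM for the means of the other families, and HELLS KO at means of 7.23 CPM for XAGE to 39.8 CPM for SSX.

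By family, HELLS KO summed to 39.8 ± 4.97 CPM for SSX, 39.6 ± 6.91 for PAGE, 24.7 ± 3.65 for GAGE and 7.23 ± 3.50 for XAGE (mean ± SD, n = 3). SSX and PAGE lay within their SD of each other, and the range of the XAGE libraries, 5.09 to 11.3 CPM, was clear of the 20.4 to 26.9 CPM of GAGE. The share held by the gene with the most counts differed by family. GAGE1 held 54.0% of the GAGE counts in HELLS KO, PAGE5 76.8% of the PAGE counts and XAGE5 29.9% of the XAGE counts. GAGE1 had 2783 own stretches and GAGE2A 200, and the part of length and shared sequence in the GAGE1 share was not tested.

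Levels between genes can be compared only per length, for which the deposited FPKM serve, values that the authors divided by gene length and by depth. In HELLS KO, PAGE5 stood at 32.8 ± 6.14 FPKM, GAGE2A at 17.2 ± 3.64 and SSX1 at 14.9 ± 1.53 (mean ± SD, n = 3). GAGE2A and SSX1 lie within their SD of each other, and PAGE5 above both. PAGE2B followed at 7.52 ± 1.86 FPKM and SSX3 at 6.99 ± 1.66, again not apart by their spread, then PAGE1 at 4.63 ± 1.17, GAGE1 at 3.88 ± 1.12 and GAGE12H at 3.43 ± 1.60. PAGE2, XAGE2, XAGE1A, XAGE5, XAGE1B and SSX2 lay between 2.15 and 1.03 FPKM. FPKM divide by the whole length of a gene, also where reads of a shared part were dropped, so the levels of GAGE2A and GAGE12H may be too low against those of PAGE5 or SSX1, which share no stretch.

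The 3 HELLS KO libraries did not carry the members in the same proportions. Between replicate 3 and the mean of replicates 1 and 2, the CPM ratio was 0.216 for XAGE1A, 0.252 for XAGE1B and 0.304 for SSX2B, all 3 from duplicated pairs, and 0.575 for GAGE12H. It was 1.58 for GAGE1 and 1.42 for SSX3. Replicate 3 is the batch-labelled and deepest library, and the part of the batch in these ratios was not tested. Over all 35 genes the ratio was 0.988.

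Without 1 HAP1 library at a time all 11 calls were made again, while some were lost without 1 HELLS KO library. GAGE1, GAGE2A, GAGE12H, PAGE1, PAGE2, SSX2 and XAGE5 were at 0 in every HAP1 library, so leaving 1 out could not change their direction. Without HELLS KO replicate 1 or without replicate 2, 7 were called, and GAGE12H (adjusted p = 0.0818 and 0.110), SSX2 (0.0619 and 0.0752), XAGE5 (0.0955 and 0.0583) and PAGE2 (0.113 and 0.0777) missed the threshold. Without HELLS KO replicate 3, XAGE5 (0.0539) and PAGE2 (0.0667) missed it and XAGE1A, XAGE1B and SSX2B passed. GAGE1, GAGE2A, PAGE1, PAGE2B, PAGE5, SSX1 and SSX3 passed edgeR's quasi-likelihood test in each of these 6 fits. With the filter on low counts removed, SSX5, SSX9P, GAGE12J, XAGE2, XAGE1A, XAGE1B and SSX2B were called in addition, 18 of 27 with counts, against 1.16% of 35791 rows. DESeq2 called 17 members higher, against 1.58% of its 26773 genes. In both fits a member at 0 in HAP1 enters only through its HELLS KO counts, so its direction is again fixed. A fit with the replicate number as a block called the same 11 members, against 2.03% of all genes tested.

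SSX2IP, on chromosome 1, is read in both genotypes and did not follow the SSX genes. It had 954, 892 and 2707 counts in HAP1 against 1143, 1269 and 2828 in HELLS KO. The libraries overlap, and the log2 fold change of 0.21 ± 0.25 (SE) did not pass edgeR's quasi-likelihood test (adjusted p = 1.00). SSX2IPP1 was at 0 in all 6 libraries.

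Most genes lying between and beside the members were not called, which is also so for all genes tested. Within 250 kb of a member on the X chromosome there were 137 other rows, of which 43 were tested. Of the 43, 2 were called higher and none lower, against 1.5% higher and 0.72% lower over all genes tested. Their median log2 fold change was 0.03 against 0.01 over all genes tested. At an unadjusted p under 0.05 there were 3 of 43. DESeq2 called 2 of 54 higher and none lower, against 1.58% higher over all its genes. Of 86 neighbouring rows with at most 3 counts in each HAP1 library, 1 had more than 3 in each HELLS KO library. Over all rows this low in HAP1 the share was 0.947%. TRO, which encodes the adhesion protein trophinin and lies 143599 bases from PAGE2B, had 79, 51 and 149 counts in HAP1 against 536, 612 and 1415 in HELLS KO, and its log2 fold change was 3.14 ± 0.27 (SE) with adjusted p = 0.00183. The other was ENSG00000232765, an unnamed pseudogene 14923 bases from PAGE3, with 0 counts in HAP1 against 25, 11 and 29 in HELLS KO and adjusted p = 0.0258 (edgeR's quasi-likelihood test).

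**Figure D3:**
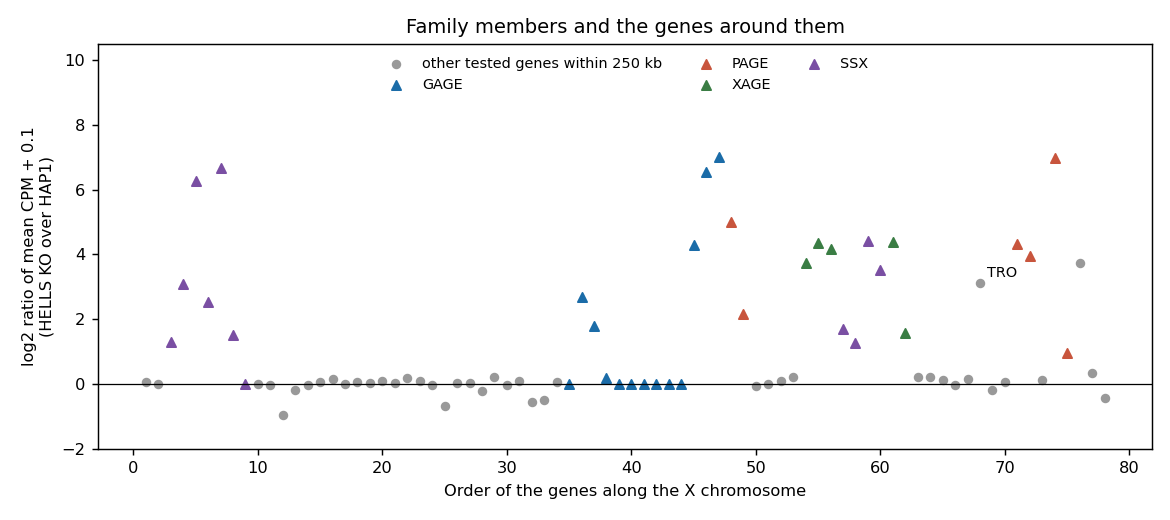
The 35 members (triangles) and the 43 tested genes within 250 kb of them (grey circles) in their order along the X chromosome (x axis), with the log2 ratio of mean CPM plus 0.1 between HELLS KO and HAP1 (y axis). Members rise in several separate groups, GAGE rows with 0 counts sit at 0, and among the neighbours TRO, at a fitted log2 fold change of 3.14, and the pseudogene near PAGE3 stand out.

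Other cancer-testis families of the X chromosome moved the same way. Of 56 genes such as the MAGEA, CSAG, CTAG and VCX genes, 21 were tested, and 20 had at most 3 counts in every library. Of the 21, 19 were called higher and none lower, against 1.5% higher and 0.72% lower over all genes tested. Their summed level was 0.774 to 2.21 CPM in HAP1 and 547 to 604 CPM in HELLS KO. CTAG2, a relative of the antigen NY-ESO-1, had 0, 0 and 2 counts in HAP1 against 967, 825 and 1155 in HELLS KO. The filter had the same effect on this list as on the members.

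In a list of 28 germline genes on other chromosomes edgeR called none higher. The list leaves out SOHLH1, a germ cell transcription factor that was called higher and is given below with the activators. Of the 28 genes in the list 10 were tested, and 2 had an unadjusted p under 0.05 in edgeR's quasi-likelihood test. DAZL, an RNA-binding protein of germ cells, was called lower, with 572, 534 and 1101 counts in HAP1 against 212, 261 and 489 in HELLS KO. DESeq2, which tested 17 of the 28, called 2 higher and 1 lower. The 8 spermatid markers all had at most 3 counts in every library and summed to at most 0.141 CPM. Of 8 spermatogonium and spermatocyte markers 3 were tested and DAZL was the only call, while DESeq2 called 1 of 6 higher and 1 lower. Neither the trophoblast list, with 1 of 7 tested, nor the melanocyte list, with 1 of 4 tested, held a called gene, and the trophoblast markers summed to 0.703 to 2.38 CPM in HAP1 and 0.137 to 2.83 CPM in HELLS KO. The melanocyte markers summed to 6.38 to 7.27 CPM and 5.53 to 7.35 CPM.

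RNA of the silencing machinery itself showed no called change, in edgeR or in DESeq2. Over all genes tested edgeR called 1.5% higher and 0.72% lower, so lists this short without a call are not set apart from other genes. None of 19 tested genes of DNA methylation was called in edgeR, where 0 had an unadjusted p under 0.05, and their median log2 fold change was 0.08 against 0.01 over all genes tested. None of 23 genes of H3K9 and H3K27 methylation was called, with 0 at an unadjusted p under 0.05 and a median of 0.02. None of 22 SSX partners, the chromatin complex genes whose products SSX or SS18-SSX proteins are known to bind, was called, with 0 at an unadjusted p under 0.05 and a median of 0.01. Of 12 activators of cancer-testis promoters 9 were tested and SOHLH1, a germ cell transcription factor, was called higher, with 2, 6 and 3 counts in HAP1 against 30, 20 and 40 in HELLS KO.

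**Figure D4:**
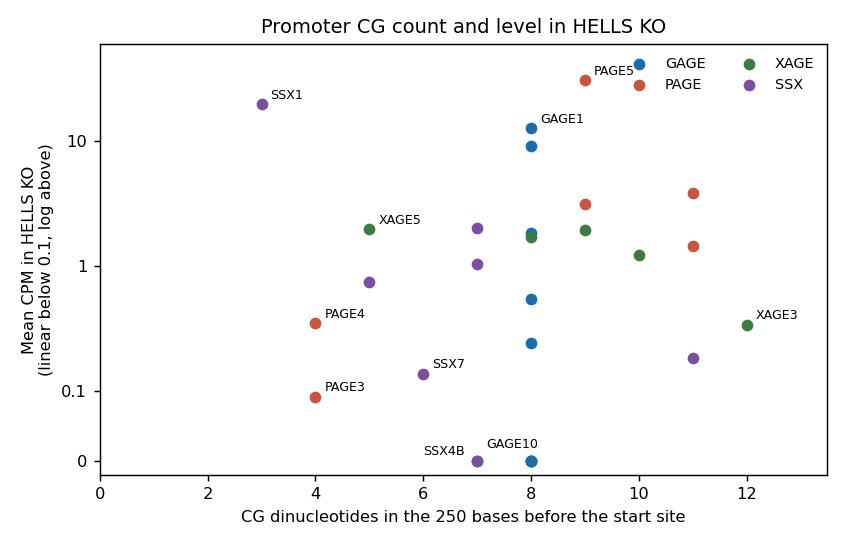
Mean CPM in HELLS KO (y axis, linear below 0.1 and logarithmic above) against the number of CG dinucleotides in the 250 bases before the start site (x axis) for the 28 members with a matched promoter, coloured by family. SSX1, with 3 CG dinucleotides, and PAGE5, with 9, are both high, and promoters with 8 in the GAGE family span 0 counts to the level of GAGE1. Those at 0 with 8 belong to GAGE12C, GAGE12D, GAGE12E and GAGE12G. These genes had 0 stretches of their own, so their 0 does not show a silent gene.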

How the data were processed

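HAP1 and HELLS KO RNA was sequenced in 6 libraries (directional kit, paired ends). Per the labels and the study's methods, the authors aligned reads with STAR (2.7.3a) to GRCh38, removed duplicates and reads with mapping quality under 20, and counted with featureCounts (2.0.6); the annotation release and strand setting are not given in the sources used here. The deposited counts are raw. The deposited FPKM, normalised by the authors for length and depth, cover the 24956 rows with more than 10 counts in all. Of 60483 rows, 56321 matched a symbol.

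Counts were tested with edgeR 4.0.16 (filterByExpr, TMM, quasi-likelihood, Benjamini-Hochberg) and checked on simulated data; DESeq2 1.42.0 and limma 3.58.1 served as alternatives. Stretches came from GENCODE 44 transcripts and hg38, promoters from RefSeq. Deviations from the group means correlated between same-numbered libraries across genotypes (0.416, 0.197 and 0.778), but also between HAP1 replicate 2 and HELLS KO replicate 1 (0.591) and HAP1 replicate 1 and HELLS KO replicate 2 (0.330), while replicate 3 correlated negatively with replicates 1 and 2. The numbers thus set replicate 3 apart and do not pair replicates 1 and 2 singly. A fit with the replicate number as a block was run and changed no member's call. HAP1 replicates 1 and 2 differed little beyond sampling noise (chi-square per gene 2.34, against 14.0 to 55.9 for other pairs) and were kept apart, with their sum as an alternative chosen after seeing the data. Values are given per library for every member with more than 10 counts, for some called genes of the other lists and for called genes within 250 kb; members and lists were chosen with earlier results of these data known.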

Additional observations from a re-analysis of the deposited data

How the results depend on the processing

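Under the alternatives that could be fitted, each of the 11 called members kept its positive direction, and 7 of them kept their call throughout. For members at 0 in every HAP1 library no other direction was possible. Members called higher numbered 17 with DESeq2, 18 with no filter, 17 with limma on log2(FPKM + 0.1) and 7 to 12 when 1 library was left out, against 11. With at least 10 counts required in every library no member could be tested. Genes called higher, 269 in all, became 424 with DESeq2, 415 with no filter, 29 with at least 10 counts in every library, 146 with limma on log2(FPKM + 1), and 112 to 273 with 1 library left out. Genes called lower, 129, became 243, 200, 48 and 52 in the same order, 285 with a batch term, 219 with replicates 1 and 2 only, and 40 to 176 with 1 library left out. The fit with a replicate block called 267 genes lower and 363 higher, and the same 11 members. Family sums on raw library totals moved by less than 1 SD. The median share of a member's stretches that occur elsewhere was 38.7% at 100 bases, 64.3% at 31 and 13.1% at 200. Depth limits the 12 members with 10 or fewer counts, and shared sequence the 10 without a stretch of their own.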

Other observations

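Read side by side, the start regions of the GAGE, PAGE and XAGE genes shared 8 bases. TGCGCATG, searched on both strands and chosen after the sequences were seen, was in all 10 matched GAGE promoters, 5 of 6 PAGE promoters and 4 of 5 XAGE promoters, and in none of 7 SSX promoters, against 1.87% of the promoters of all genes. The GAGE promoters are copies of 3 distinct windows, so these matches are not independent. The window of GAGE12G is that of GAGE2A with its ends shifted, and the 2 have 247 identical bases. In the sequences printed in the report it stands near the end of GAGE2A and GAGE10, and it is also in PAGE3, a gene with 4 counts in HELLS KO, so its presence does not separate counted from silent genes.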
